A study of Mus musculus with 30 samples.

Results

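The glutathione and thioredoxin antioxidant enzymes described here were 10 genes, Gclc, Gclm, Gss, Gsr, Slc7a11, Gpx2, Gpx4, Txnrd1, Srxn1, and Prdx1, chosen by symbol from a liver RNA-seq count table of 55335 genes. All 10 matched a row of the table. The livers came from male mice, 7 to 10 weeks old, of 3 genotypes: wild-type, C151S, which are homozygous for a CRISPR knock-in that replaces a sensor cysteine of KEAP1 with serine, and homozygous Nrf2-knockout mice, in which the Nrf2 gene (symbol Nfe2l2) is disrupted in every tissue. All 3 genotypes were on an albino C57BL/6J background, which carries a tyrosinase mutation. Each mouse received 1 oral dose of CDDO-Me (bardoxolone methyl, an electrophilic triterpenoid) at 30 µmol/kg, or the vehicle of DMSO, Cremophor-EL, and PBS, and the liver was taken after 24 hours. The 6 groups held 5 mice each, 30 libraries in all. The wild-type mice were bought from a vendor and the mutant lines were bred by the study, so that genotype and colony cannot be told apart in any comparison of a mutant with wild-type.

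NRF2 is a transcription factor that KEAP1 marks for degradation, and electrophiles that react with cysteines of KEAP1 let NRF2 accumulate and bind antioxidant response elements. Glutathione is made from cysteine, glutamate, and glycine. It is used by glutathione peroxidases to reduce peroxides and is then regenerated by glutathione reductase. The thioredoxin system runs in parallel: peroxiredoxins reduce peroxides, thioredoxin and thioredoxin reductase keep them reduced, and sulfiredoxin rescues those that are overoxidised. The liver is the main organ of glutathione synthesis and export.

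The libraries held 23667068 to 42073169 counts on genes (median 33229925). A level is given below in CPM, the count scaled to a library of fixed size with TMM factors, and a value of a group is its mean ± SD of 5 mice. A gene was called changed when edgeR's quasi-likelihood test gave a false discovery rate (FDR) under 0.05 over all genes tested and its log2 fold change was 0.5 or more in size; differences between responses were called on the FDR alone. At 3 counts or fewer a gene was taken as at the floor of detection in that library. In bulk liver, fewer cells of a type and less RNA per cell cannot be told apart.

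The targeted genes and the tissue were examined first. Nfe2l2 was at 66.1 ± 4.15 CPM in vehicle-treated wild-type mice, 77.7 ± 7.63 in C151S mice, and 35.1 ± 4.54 in Nrf2-knockout mice. After CDDO-Me the same groups were at 53.5 ± 4.99, 66.4 ± 14.4, and 26.3 ± 3.17 CPM. All 10 Nrf2-knockout libraries were below all 20 others, and reads on this gene remained in the knockout, at 825 to 1832 counts. The coding change of Keap1 in C151S mice cannot be read from a gene count. Keap1 ranged from 45.0 ± 6.11 CPM in vehicle-treated C151S mice to 68.6 ± 6.71 in CDDO-Me-treated wild-type mice. The summed level of 8 hepatocyte markers, led by Alb (albumin) at a mean of 83060 CPM, was 74499 to 157020 CPM in every library.

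Some libraries stood apart in the circadian clock gene Arntl (Bmal1), whose transcript cycles over the day. Arntl was at 2.52 to 4.79 log2 CPM in 19 libraries, among them all 10 wild-type ones, and at -1.15 to 0.90 in the other 11, which were 2 vehicle-treated and 3 CDDO-Me-treated C151S mice and 3 Nrf2-knockout mice of each treatment. The time of day of dissection and the date of RNA isolation were not given per mouse in the sources used here. Results are therefore also given below for the 19 high-Arntl libraries alone.

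Promoter windows were available from RefSeq (GRCm38.p6) for 8 of the 10 genes, all but Gclc and Gsr. The windows of 300 bases, from 250 before the start site to 50 after it, were searched on both strands for the core of the antioxidant response element, TGACNNNGC, which was held by 12.4% of all promoters, for TGANTCA, the AP-1 motif (7.81%), which overlaps the element where GC follows, and for CACGTG, the E-box of clock factors (7.15%). The related TGAGNNNGC (17.6%) was added after the windows had been seen. The 250 bases upstream are shown for the 3 genes that rose after CDDO-Me in wild-type mice and held the core, with matches to TGACNNNGC or TGAGNNNGC in capitals. Txnrd1 has several start sites, and the window shown is the only one of its windows with the core.
Gclm, chr3:122245307-122245556, plus strand: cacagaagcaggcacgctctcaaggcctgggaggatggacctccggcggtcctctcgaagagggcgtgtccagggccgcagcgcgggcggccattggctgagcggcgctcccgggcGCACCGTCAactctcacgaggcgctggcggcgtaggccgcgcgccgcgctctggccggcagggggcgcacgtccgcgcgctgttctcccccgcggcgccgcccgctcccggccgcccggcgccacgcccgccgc
Txnrd1, chr10:82858956-82859205, plus strand: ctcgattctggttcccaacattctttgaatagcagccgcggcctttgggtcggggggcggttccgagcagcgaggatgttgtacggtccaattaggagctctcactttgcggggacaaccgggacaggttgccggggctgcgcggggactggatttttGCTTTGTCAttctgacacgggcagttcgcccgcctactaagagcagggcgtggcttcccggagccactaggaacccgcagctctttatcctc
Srxn1, chr2:152105274-152105523, plus strand: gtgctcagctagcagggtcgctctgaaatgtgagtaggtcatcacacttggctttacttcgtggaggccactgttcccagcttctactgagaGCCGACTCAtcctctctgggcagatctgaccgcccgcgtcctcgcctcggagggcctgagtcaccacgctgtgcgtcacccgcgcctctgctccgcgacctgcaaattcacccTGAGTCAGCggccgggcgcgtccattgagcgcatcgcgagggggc
In Gclm and Txnrd1 the core lies on the opposite strand, as TGACGGTGC from position -134 and as TGACAAAGC from position -92. Upstream of Srxn1 the capitals mark TGAGTCGGC on the opposite strand from -158 and TGAGTCAGC from -45, the second of which overlaps a TGANTCA match. The Srxn1 core, TGACCTAGC on the opposite strand, begins at +28 of the transcribed sequence, beyond the bases shown. Prdx1 also held the core, TGACTCAGC at -133, while no window of Gss, Slc7a11, Gpx2, or Gpx4 held it. Outside Srxn1, TGAGNNNGC occurred in Slc7a11 (TGAGAAAGC, opposite strand from -97) and in Prdx1 (TGAGAACGC, opposite strand from +15). No window of the 8 genes held CACGTG. A match describes the letters of the window and is not a measurement of NRF2 binding.

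Of the 10 genes, 8 passed the filter on low counts in every comparison. In wild-type mice, CDDO-Me raised 5 of these 8: Gclc and Gclm of glutathione synthesis, Gsr of the glutathione cycle, and Txnrd1 and Srxn1 of the thioredoxin system. None fell. Gpx2 passed the filter only where the CDDO-Me-treated wild-type group took part, through its counts in that group, and is left out of these counts and medians, and Slc7a11 did not pass in any comparison. Over all genes 1.66% were called higher (227 of 13697). The median log2 fold change of the 8 genes was 0.80 and that of all genes tested was -0.01. DESeq2 called 6 of the 8, Gss in addition, where it called 296 of 13697 genes higher. In C151S mice 0 of 8 genes were called, where 0.092% of all genes were called in either direction. An unadjusted p under 0.05 was held by 0 of the 8 and by 1942 of 14128 genes over all. DESeq2 also called 0, and the median of the 8 was 0.07. In Nrf2-knockout mice 0 of 8 were called and 0.0% of all genes, since edgeR's test called 0 of 14474 genes, with 1136 at an unadjusted p under 0.05 and 52 called by DESeq2. There 4 of the 8 genes had an unadjusted p under 0.05 (Gss, Gsr, Txnrd1, and Prdx1, all higher after CDDO-Me), DESeq2 called 0, and the median was 0.25. Gene positions below are of GRCm38 (GENCODE release 21).

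**Figure D1:**
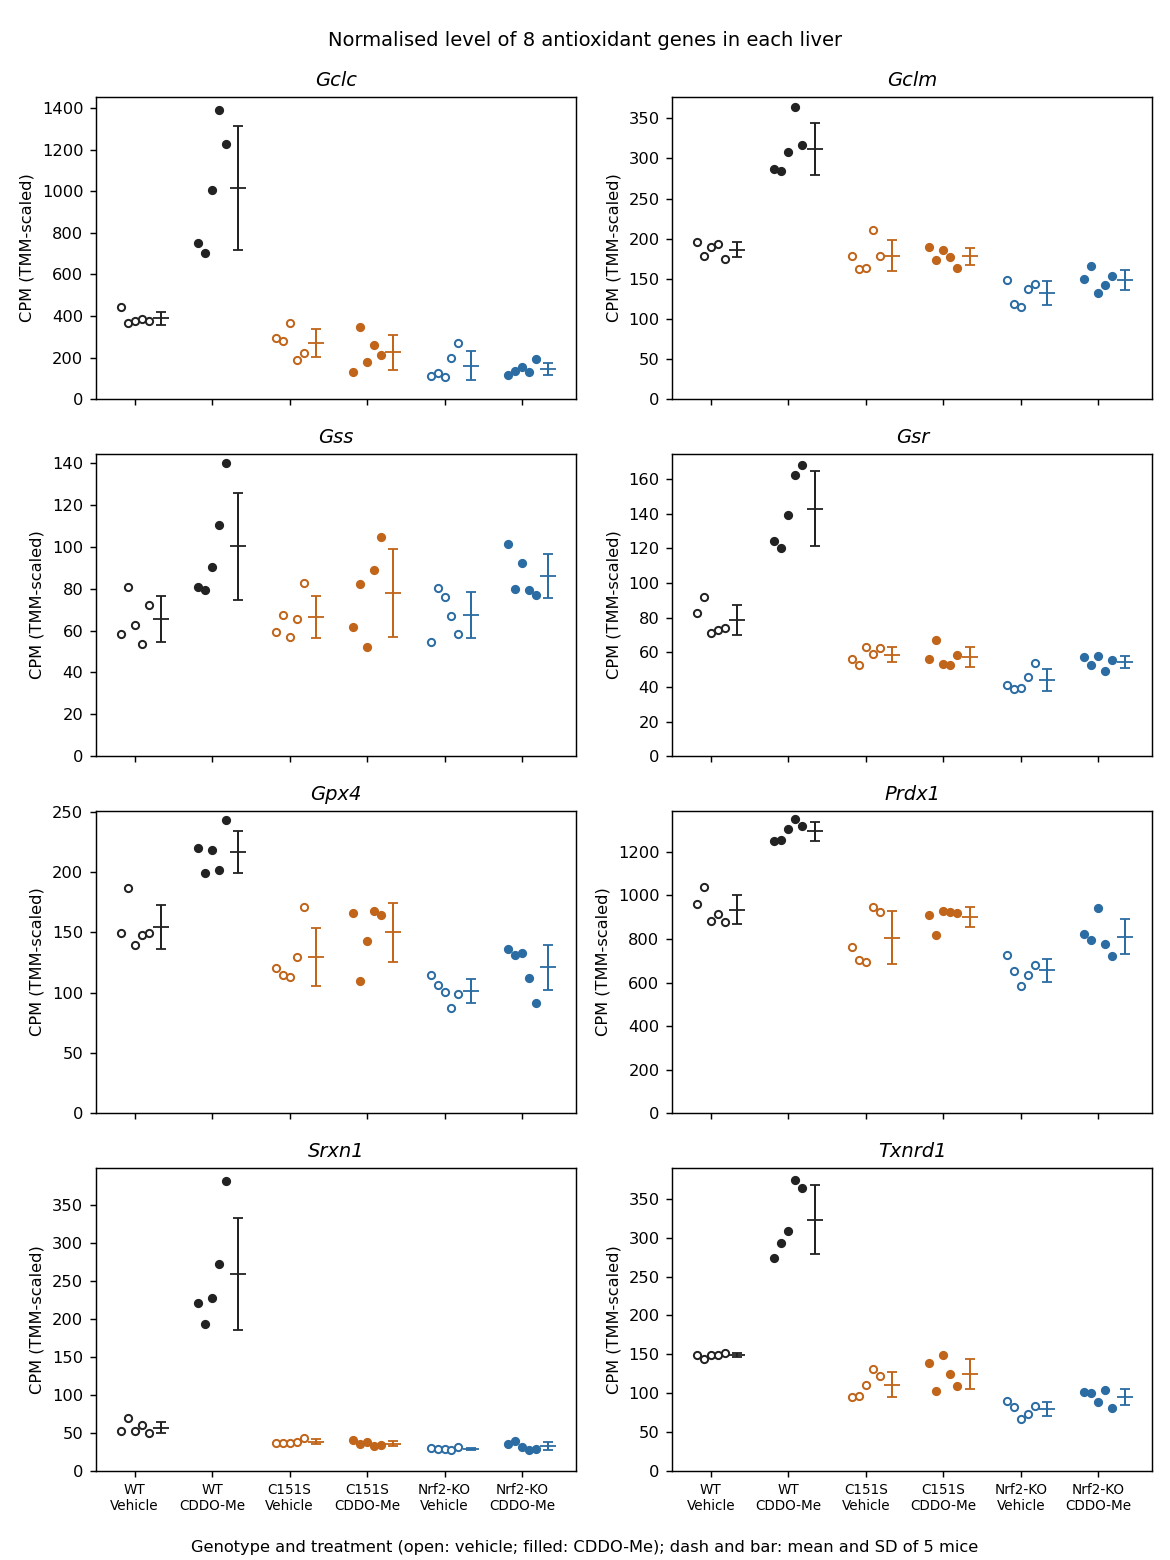
TMM-scaled CPM (y axis, from 0) of 8 genes in each of 30 livers by genotype and treatment (x axis), as points (open, vehicle; filled, CDDO-Me) with the mean and SD of 5 mice. The filled black points of wild-type mice given CDDO-Me lie above all open black points in every panel except that of Gss.

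Slc7a11 (chr3:49892526-50443614, minus strand) encodes xCT, a transporter that imports cystine, which is 1 source of the cysteine in glutathione. Slc7a11 was barely detected: 29 of 30 libraries held 0 to 2 counts, and 1 wild-type mouse given CDDO-Me held 4. No fold change is given for it.

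Gclc (chr9:77754535-77794485, plus strand) encodes the catalytic subunit of glutamate-cysteine ligase, the rate-limiting enzyme of glutathione synthesis. Its levels in vehicle-treated wild-type mice were 445, 365, 375, 387, and 378 CPM, and in CDDO-Me-treated mice 751, 702, 1007, 1390.0, and 1228 CPM. The groups did not overlap, and the treated mice spread more widely (SD of 297 against 31.7 CPM). The log2 fold change was 1.37 (SE 0.17, edgeR FDR 0.000586). In C151S mice the vehicle-treated livers held 296, 281, 366, 189, and 221 CPM and the CDDO-Me-treated livers 131, 348, 177, 260.4, and 214 CPM, which overlap. In Nrf2-knockout mice the values were 114, 125, 105, 197, and 271 CPM after vehicle and 117, 135, 153, 129, and 196 CPM after CDDO-Me, which also overlap. The log2 fold change was -0.26 (SE 0.26) for C151S and -0.16 (SE 0.26) for Nrf2-knockout.

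Gclm (chr3:122245557-122270732, plus strand) encodes the modifier subunit, which lowers the concentration of glutamate the ligase needs. Wild-type mice held 196, 178, 189, 193, and 175 CPM after vehicle and 286, 284, 308, 364, and 317 CPM after CDDO-Me, without overlap, a log2 fold change of 0.74 (SE 0.08, edgeR FDR 0.000157). C151S mice held 178, 163, 164, 211, and 178 CPM after vehicle and 189.8, 174, 186, 177, and 163 CPM after CDDO-Me. Nrf2-knockout mice held 149, 119, 116, 137, and 143 CPM and 149, 166, 133, 142, and 153 CPM. Both pairs of groups overlapped, with log2 differences of -0.01 (SE 0.09) and 0.15 (SE 0.10). Gss (chr2:155563181-155592810, minus strand) encodes glutathione synthetase, which adds glycine in the last step. Its wild-type levels were 58.3, 80.8, 62.7, 53.6, and 72.3 CPM after vehicle and 80.6, 79.4, 90.2, 110.3, and 139.9 CPM after CDDO-Me. The lowest treated mice lay at the level of the highest vehicle-treated mouse, and the log2 fold change of 0.60 (SE 0.16) missed the threshold of edgeR's quasi-likelihood test at an FDR of 0.0563. Without vehicle replicate 2 or CDDO-Me replicate 2 that FDR was 0.029 or 0.0486, with no filter on low counts it was 0.0145, and DESeq2 gave 0.0064, so that Gss was called in each of these. Of the 50-base words of the Gss transcripts, 10.3% also occur in other genes on either strand, chiefly Acss2, which overlaps Gss on the opposite strand. The libraries were stranded, so this overlap does not by itself add reads to Gss. For Gclm the share was 4.58%, and Gm6061 overlaps Gclm on the same strand.

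Gsr (chr8:33652523-33698163, plus strand) encodes glutathione reductase. It rose in wild-type mice from 83.0, 91.7, 71.5, 72.7, and 74.3 CPM to 124, 120.4, 139, 162, and 168 CPM, a log2 fold change of 0.85 (SE 0.11, edgeR FDR 0.000697) with no overlap. C151S mice held 56.1, 52.8, 63.3, 58.9, and 62.8 CPM after vehicle and 55.9, 67.3, 53.1, 53.0, and 58.3 CPM after CDDO-Me, a log2 difference of -0.04 (SE 0.09). Nrf2-knockout mice held 41.0, 38.8, 39.8, 45.9, and 54.0 CPM after vehicle and 57.4, 52.9, 57.9, 49.5, and 55.5 CPM after CDDO-Me. The knockout groups overlapped through vehicle replicate 5, and the log2 difference of 0.30 (SE 0.11) had an FDR of 0.559 in edgeR's quasi-likelihood test.

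Gpx2 (chr12:76792333-76795554, minus strand) encodes the gastrointestinal glutathione peroxidase, which is rare in liver. Its raw counts were 1, 3, 2, 1, and 1 in vehicle-treated wild-type livers and 25, 14, 24, 19, and 45 after CDDO-Me. All 20 mutant libraries held 0 to 3 counts, whatever the treatment. Against the floor of 3 counts per library, which was at most 0.132 CPM in the vehicle group, the CDDO-Me wild-type mean of 0.845 ± 0.366 CPM was at least 6.42-fold higher. Its test in edgeR is not used as support, since these treated livers brought the gene past the filter. Per transcript length the treated level was 0.625 TPM, the measure that divides by length and is used below for levels between genes, whereas Gpx4 stood at 299.7 TPM in the same livers. The summed level of 7 markers of intestinal epithelium, where this enzyme is abundant, was 62.4 ± 5.33 CPM in vehicle-treated and 64.4 ± 8.98 CPM in CDDO-Me-treated wild-type mice. Fabp2 made up most of that sum at a mean of 41.6 CPM, Cdx1 was at 0 in every library, and only 2 of the 7 markers passed the filter in that comparison, of which 0 were called.

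**Figure D2:**
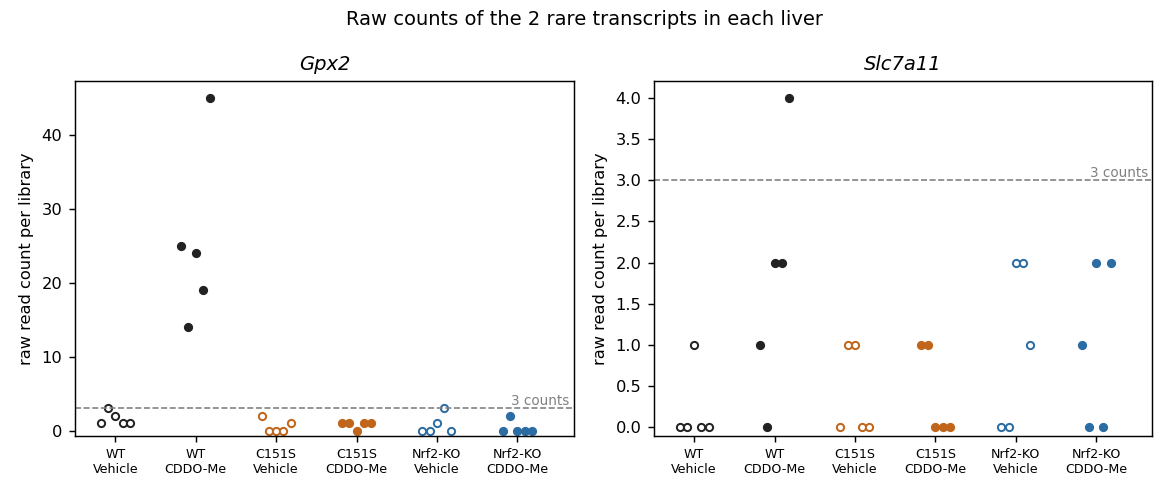
Raw read count per library (y axis, linear) of Gpx2 and Slc7a11 in the 6 groups (x axis), with a dashed line at 3 counts. Gpx2 exceeded 3 counts in the 5 wild-type livers given CDDO-Me, at 14 to 45 counts, and in no other liver.

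Gpx4 (chr10:80047166-80056439, plus strand) encodes the peroxidase that reduces phospholipid hydroperoxides and guards against ferroptosis. Wild-type levels were 149.7, 187, 139.9, 148, and 149 CPM after vehicle and 219.9, 199.7, 219, 202, and 243 CPM after CDDO-Me. Every treated mouse was above every vehicle-treated one, and the log2 difference of 0.48 (SE 0.09, edgeR FDR 0.00942) passed on FDR and missed the threshold on size. It reached that threshold without vehicle replicate 2 (0.56) or without CDDO-Me replicate 2 or 4 (0.50 for each). Of the 50-base words of the Gpx4 transcripts, 34.7% also occur in transcripts of other genes, chiefly the pseudogene Gpx4-ps2, and reads that map to more than 1 place were not counted. The log2 differences were 0.21 (SE 0.14) in C151S and 0.24 (SE 0.12) in Nrf2-knockout mice, with overlapping groups.

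Txnrd1 (chr10:82833951-82897712, plus strand) encodes the cytosolic thioredoxin reductase, a selenoprotein. The vehicle-treated wild-type mice were close together at 149, 144, 149, 149, and 152 CPM, and the CDDO-Me-treated mice held 274, 293, 309.5, 375, and 364 CPM. The log2 fold change was 1.11 (SE 0.09, edgeR FDR 1.44e-05). C151S mice held 94.5, 96.6, 110.5, 131, and 122 CPM after vehicle and 138, 103, 149, 124, and 109 CPM after CDDO-Me. Nrf2-knockout mice held 89.5, 81.8, 66.2, 73.3, and 82.9 CPM and 101, 99.6, 88.5, 104, and 80.0 CPM. Both pairs overlapped, at log2 differences of 0.16 (SE 0.13, FDR 0.552) and 0.26 (SE 0.11, FDR 0.603) in edgeR's quasi-likelihood test.

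Srxn1 (chr2:152105516-152111376, plus strand) encodes sulfiredoxin. Among the genes above the floor in every group it had the largest log2 fold change in wild-type mice, 2.19 (SE 0.17, edgeR FDR 1.44e-05). The 5 vehicle-treated livers held 52.2, 68.7, 52.7, 59.9, and 49.5 CPM, and the 5 treated livers 222, 193, 227, 272, and 381 CPM. In C151S mice Srxn1 was at 35.7, 36.9, 36.0, 37.7, and 43.3 CPM after vehicle and at 40.3, 35.3, 37.1, 31.8, and 33.4 CPM after CDDO-Me. In Nrf2-knockout mice it was at 29.6, 28.9, 28.7, 26.7, and 30.4 CPM after vehicle and at 34.6, 39.5, 31.6, 27.2, and 27.8 CPM after CDDO-Me. The mutant groups overlapped between treatments, and every mutant library lay below the lowest wild-type one.

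Prdx1 (chr4:116685544-116700822, plus strand) encodes the abundant cytosolic peroxiredoxin that sulfiredoxin repairs. It had the highest level per length of the 10 genes in every group. Wild-type mice held 959, 1038, 883, 914, and 878 CPM after vehicle and 1247, 1254, 1303, 1349, and 1317 CPM after CDDO-Me. The groups did not overlap, and the log2 difference was 0.46 (SE 0.07, edgeR FDR 0.00299), below the threshold on size. Other genes, many of them processed copies, share 8.81% of the 50-base words of Prdx1. The log2 differences were 0.16 (SE 0.11) in C151S and 0.30 (SE 0.11, FDR 0.578 in edgeR's quasi-likelihood test) for Nrf2-knockout.

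**Figure D3:**
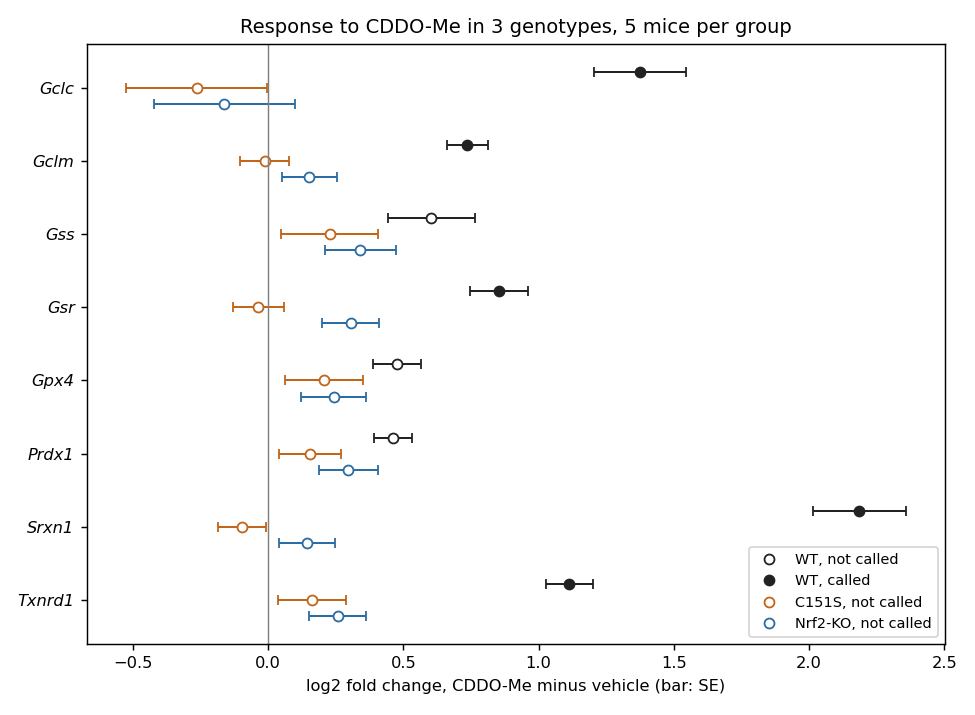
Log2 fold change of CDDO-Me minus vehicle (x axis) with its SE for 8 genes (y axis) in wild-type (black), C151S (orange), and Nrf2-knockout (blue) mice, filled where called. The wild-type values run from 0.46 to 2.19, the C151S values from -0.26 to 0.23, and the Nrf2-knockout values from -0.16 to 0.34.

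Across the wild-type mice given CDDO-Me, replicates 4 and 5 held the highest levels of Gclc, Gclm, Gss, Gsr, Txnrd1, Srxn1, and Prdx1, whereas for Gpx4 the highest was replicate 5 and replicate 4 was near the low end. Among the vehicle-treated wild-type mice, replicate 2 was highest for Gss, Gsr, Gpx4, Srxn1, and Prdx1, as it was for Arntl at 27.6 CPM against 9.52 to 13.3 in the others. Without that mouse the wild-type comparison called Gss, Gpx4, and Prdx1 in addition, 8 of the 8 genes, with log2 fold changes of 0.69, 0.56, and 0.50. The total called over all genes in either direction also moved, from 377 with all mice to between 265 and 493 over the single omissions. Among markers of other cell types, the neutrophil gene S100a8 rose in wild-type mice (log2 fold change of 1.69, from 0.267 to 0.874 CPM, edgeR FDR 0.0235), and the 7 lymphocyte and neutrophil markers summed to 3.22 ± 0.509 and 4.47 ± 0.740 CPM. Alas2 of the erythroid list fell by 0.60 on the log2 scale, from 140.2 to 92.8 CPM (edgeR FDR 0.0113). None of the 4 globins of that list was called: Hbb-bs was at 90.9 and 100.7 CPM, Hba-a1 at 20.4 and 21.3, Hbb-bt at 16.8 and 19.3, and Hba-a2 at 5.004 and 4.793. Cela1, the only 1 of 7 pancreas markers that passed the filter, fell by 0.68 on the log2 scale, from 18.0 to 11.4 CPM (edgeR FDR 0.0232). The 8 hepatocyte markers summed to 110080.0 ± 8134 CPM after vehicle and 94703 ± 9812 CPM after CDDO-Me, with 0 of 8 called. The part of these cell types in the results was not tested.

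The differences between genotypes in the size of the response were tested directly, in a fit of all 30 libraries. The response of wild-type mice exceeded that of C151S mice for 5 of the 8 genes, where 0.386% of all genes were called higher. The differences in log2 fold change were 2.29 (SE 0.19, FDR 1.82e-08) for Srxn1, 0.95 (SE 0.16, FDR 0.0013) for Txnrd1, 0.89 (SE 0.15, FDR 0.000977) for Gsr, 0.75 (SE 0.13, FDR 0.0013) for Gclm, and 1.64 (SE 0.36, FDR 0.0249) for Gclc in edgeR's quasi-likelihood test. For Gpx4 (0.27, SE 0.18), Prdx1 (0.31, SE 0.13), and Gss (0.38, SE 0.24) the FDR was 0.53 or above. Gpx2, at the floor in both mutants, is left out of these counts too. Against Nrf2-knockout mice the wild-type response was larger for 3 of the 8 genes, where 0.24% of all genes were called higher: Srxn1 (2.04, SE 0.19, FDR 1.45e-07), Txnrd1 (0.85, SE 0.16, FDR 0.00799), and Gclm (0.58, SE 0.13, FDR 0.0323). Gclc differed by 1.53 (SE 0.36, FDR 0.061) and Gsr by 0.55 (SE 0.15, FDR 0.148). Between C151S and Nrf2-knockout mice 0 of 8 responses were called different, where 0.0133% of all genes were called. An unadjusted p under 0.05 was held by 1 of the 8, Gsr, with a difference of -0.35 (SE 0.15), and by 739 of 15010 genes over all. DESeq2 called 5, 4, and 0 genes in these contrasts, where it called 113, 85, and 3 of 15010 genes over all. The contrasts share libraries and are not independent of each other.

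Both Gclc response differences and the Gclm difference from Nrf2-knockout lay near the FDR threshold. The Gclc difference from C151S was 1.5 to 1.86 over all single omissions, and that from Nrf2-knockout 1.28 to 1.67. The Gclm difference was 0.69 to 0.78 from C151S, where its call was kept throughout, and 0.52 to 0.63 from Nrf2-knockout. The Gclc difference from C151S missed the threshold when any of 12 single libraries was left out, at FDRs of 0.0502 to 0.075, namely wild-type vehicle replicates 2 to 5, wild-type CDDO-Me replicates 4 and 5, C151S vehicle replicates 1 to 3, and C151S CDDO-Me replicates 1, 3, and 5. The Gclm difference from Nrf2-knockout missed it without wild-type vehicle replicate 5, wild-type CDDO-Me replicate 4 or 5, knockout vehicle replicate 1, or knockout CDDO-Me replicate 3, at FDRs of 0.0562 to 0.0815, and with no filter on low counts, at 0.57 and an FDR of 0.149. The Gclc difference from Nrf2-knockout passed the threshold, at FDRs of 0.0382 to 0.0449, without any of wild-type CDDO-Me replicate 2, C151S CDDO-Me replicates 1 and 2, knockout vehicle replicates 1 and 3, and knockout CDDO-Me replicate 5, all in edgeR's quasi-likelihood test. This Gclc difference also passed with no filter on low counts and with DESeq2. In the 19 high-Arntl libraries, where 34 and 21 of 15394 genes were called higher, Srxn1 alone of the 8 was called in each contrast with wild-type. Its differences were 2.13 (SE 0.28, FDR 0.00161) against C151S and 1.97 (SE 0.29, FDR 0.00409) against Nrf2-knockout. There the Gclm differences were 0.63 (FDR 0.0589) and 0.57 (FDR 0.195) in edgeR's test, the Gsr difference from C151S was 0.76 (FDR 0.146). The Txnrd1 differences there were 0.86 (FDR 0.0553) and 0.93 (FDR 0.0698), and the Gclc differences 1.77 (FDR 0.108) and 1.88 (FDR 0.148), from 5 C151S and 4 Nrf2-knockout libraries in place of 10 each. With all 30 libraries and the Arntl set as a covariate, 5 genes were called in the contrast with C151S and 4 in that with Nrf2-knockout, where Gclc was added at 1.47 (FDR 0.0159 in edgeR's quasi-likelihood test).

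Without CDDO-Me, the genotypes already differed, and the means of several genes were ordered from wild-type through C151S to Nrf2-knockout. Srxn1 stood at 56.6 ± 7.75 CPM in wild-type, 37.9 ± 3.13 in C151S, and 28.9 ± 1.38 in Nrf2-knockout mice, and these 3 groups did not overlap. Txnrd1 stood at 149 ± 2.80, 111 ± 15.8, and 78.7 ± 9.05 CPM, and Gsr at 78.6 ± 8.60, 58.8 ± 4.44, and 43.9 ± 6.29 CPM. Gss did not follow this order, at 65.5 ± 10.99, 66.4 ± 10.05, and 67.3 ± 10.95 CPM.

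In C151S against wild-type, 1 of 8 genes was called, lower, where 2.25% of all genes were called lower. It was Srxn1, at a log2 difference of -0.56 (SE 0.10, edgeR FDR 0.00717), which without wild-type replicate 2 was -0.48 (FDR 0.00792) and so below the threshold on size. Gsr (-0.41, SE 0.09, FDR 0.0182) and Txnrd1 (-0.41, SE 0.09, FDR 0.016) passed edgeR's FDR and not the size, with no overlap between groups. Gclc was at -0.51 (SE 0.16, edgeR FDR 0.0723), and without C151S replicate 3 at -0.65 (FDR 0.0238). In the high-Arntl libraries Srxn1 (-0.62, FDR 0.00387) and Txnrd1 (-0.54, FDR 0.00133) were called by edgeR, where 684 of 14305 genes were called lower. Of the markers of other cell types, Spp1 of the cholangiocyte list was lower in C151S (32.8 and 18.3 CPM, edgeR FDR 0.0466), as was the sum of the 7 cholangiocyte markers (56.4 ± 11.7 and 38.4 ± 6.05 CPM). The 6 endothelial markers summed to 165 ± 12.2 and 212 ± 37.3 CPM and the 8 hepatocyte markers to 110080.0 ± 8134 and 128000.0 ± 9466 CPM, both higher in C151S, and the part of these cell types in the result was not tested.

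In Nrf2-knockout against wild-type, 5 of 8 genes were lower, where 4.13% of all genes were called lower: Gclc (-1.24, SE 0.24, FDR 0.00688), Srxn1 (-0.95, SE 0.09, FDR 0.00019), Txnrd1 (-0.90, SE 0.08, FDR 9.37e-05), Gsr (-0.82, SE 0.11, FDR 0.00115), and Gpx4 (-0.59, SE 0.10, FDR 0.00305) in edgeR's quasi-likelihood test. Prdx1 (-0.49, SE 0.08, FDR 0.00394) and Gclm (-0.47, SE 0.09, FDR 0.00535) lay just under the threshold on size. Gclm passed it without knockout replicate 1 or 5 (-0.51 and -0.50), and Prdx1 without wild-type replicates 3, 4, or 5 or knockout replicates 1 or 5 (-0.50 to -0.52). The median of the 8 genes was -0.71 against 0.01 over all genes. In the high-Arntl libraries the same 5 genes were called, where 496 of 14453 genes were called lower. The Gclc difference there was smaller, at -0.71 (SE 0.14, FDR 0.0211). The Nrf2-knockout livers also differed in markers of other cell types. The summed level of 7 stellate cell and fibroblast markers, led by Dcn (decorin), was 342 ± 115 CPM against 209 ± 40.2 in wild-type, with Des, Col1a1, Pdgfrb, and Col3a1 called higher, and that of 6 endothelial markers was 246 ± 49.0 against 165 ± 12.2, with Pecam1, Stab2, and Lyve1 called higher. The 6 erythroid markers summed to 182 ± 33.3 CPM against 273 ± 38.3, with Hba-a1, Hbb-bs, and Hbb-bt called lower. S100a8 and S100a9 were also called higher. Of the intestinal list Lgals4 was called higher (13.0 and 19.8 CPM), while Fabp2 was at 49.2 and 33.9 CPM and the list's sum at 62.4 ± 5.33 in wild-type and 54.2 ± 10.9 in the knockout. The part of these cell types in the result was not tested. The sum of the 8 hepatocyte markers was 125020.0 ± 5161 CPM in the knockout and 110080.0 ± 8134 CPM in wild-type, with 0 of 8 called. The libraries of these groups also differed in mapping, without overlap. Reads counted on genes were 65.9% to 74.5% in vehicle-treated wild-type and 76.0% to 80.2% in vehicle-treated knockout libraries. Reads at more than 1 place were 13.6% to 16.9% and 10.6% to 13.3%. The part of this difference in the result was not tested. Between the 2 mutants 0 of 8 genes were called, where 0.349% of all genes were called. There 7 of the 8 genes had an unadjusted p under 0.05, as had 1625 of 14323 genes over all. All 7 were lower in the knockout, from -0.30 for Prdx1 to -0.74 for Gclc. Srxn1 came closest to the threshold, at -0.39 (SE 0.08, FDR 0.0611 in edgeR's quasi-likelihood test).

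After CDDO-Me, 7 of the 8 genes were lower in C151S than in wild-type mice, where 2.8% of all genes were called lower, and 7 of the 8 were lower in Nrf2-knockout mice, where 4.85% were. Their medians were -1.04 and -1.21 against 0.03 over all genes in each. These 2 comparisons share the 5 CDDO-Me-treated wild-type libraries. The gene left out in each was Gss, at -0.34 (SE 0.21, FDR 0.324) and -0.20 (SE 0.15, FDR 0.416) in edgeR's quasi-likelihood test. The log2 differences of Srxn1 were -2.84 (SE 0.18, FDR 1.04e-05) in C151S and -2.99 (SE 0.19, FDR 1.14e-06) in Nrf2-knockout, and those of Gclc -2.14 (SE 0.28) and -2.77 (SE 0.22). Txnrd1 differed by -1.36 (SE 0.13) and -1.75 (SE 0.12), Gsr by -1.29 (SE 0.12) and -1.37 (SE 0.11), and Gclm by -0.79 (SE 0.09) and -1.05 (SE 0.10). For Gpx2 the wild-type mean was at least 8.32-fold above the floor of the C151S libraries and 8.11-fold above that of the Nrf2-knockout libraries. Gpx4 and Prdx1 lay at the threshold in C151S (-0.51 and -0.50, FDR 0.0281 and 0.00837 in edgeR's test) and further below wild-type in Nrf2-knockout (-0.82 and -0.65). Among the markers of other cell types, Marco of the macrophage list was lower in both mutants (-1.13 and -2.14), and Col3a1 (1.17) and Pecam1 (0.57) were higher in Nrf2-knockout mice, as was Ass1 (0.87) of the hepatocyte list. The 8 macrophage markers summed to 177 ± 24.8 CPM in wild-type, 206 ± 61.8 in C151S, and 183 ± 68.2 in Nrf2-knockout mice, the 7 stellate cell markers to 199 ± 33.9, 216 ± 46.8, and 281 ± 126.6, and the 6 endothelial markers to 159 ± 12.7, 196 ± 38.8, and 200.1 ± 53.5. The 7 cholangiocyte markers summed to 55.0 ± 12.7, 37.4 ± 6.54, and 49.5 ± 8.69 CPM and the 6 erythroid markers to 239 ± 80.5, 173 ± 64.3, and 173 ± 78.8, in the same order. The 8 hepatocyte markers summed to 94703 ± 9812, 112240.0 ± 30930.0, and 103080.0 ± 14580.0 CPM, and the part of these cell types in the result was not tested.

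The call of Gpx4 in C151S was lost without wild-type CDDO-Me replicates 1, 3, or 5 or C151S replicates 2 or 3 (log2 difference -0.43 to -0.52, FDR 0.0161 to 0.0647 in edgeR's test), and that of Prdx1 without wild-type replicates 4 or 5 or C151S replicate 2 (-0.49 to -0.50, FDR 0.0112 to 0.0288) and with upper-quartile normalization (-0.49, FDR 0.00793), since either the size or the FDR then missed its threshold. In the high-Arntl libraries 5 of the 8 genes were called in C151S, and 7 in Nrf2-knockout. Over all genes, 204 of 14499 and 576 of 14516 were called lower in these libraries. There Gpx4 (-0.64, FDR 0.0941) and Prdx1 (-0.57, FDR 0.0703) in C151S passed the size and missed edgeR's FDR, and Gss (-0.46, FDR 0.371) missed both. Between the 2 mutants after CDDO-Me 0 of 8 genes were called, where 0.162% of all genes were called. An unadjusted p under 0.05 was held by 1110 of 14186 genes over all and by 3 of the 8: Gclc at -0.63 (SE 0.24), Txnrd1 at -0.39 (SE 0.13), and Gclm at -0.26 (SE 0.10). The FDR of each was 0.429 or above in edgeR's quasi-likelihood test.

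**Figure D4:**
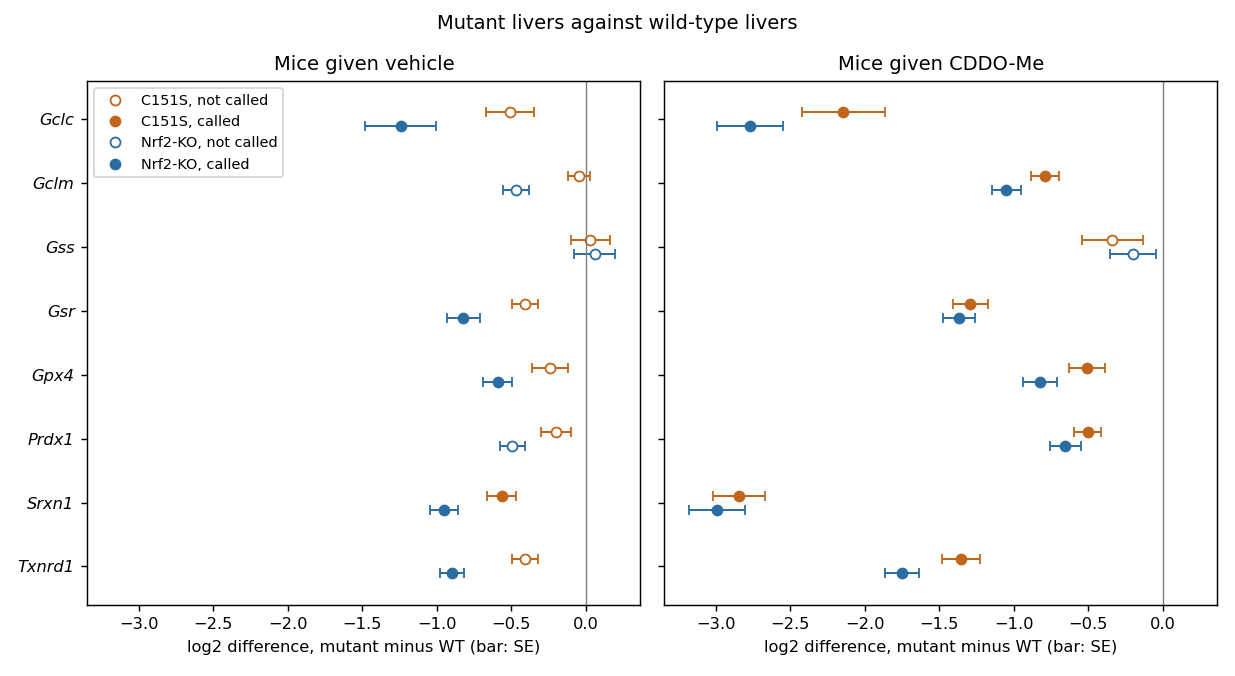
Log2 difference of C151S (orange) and Nrf2-knockout (blue) from wild-type (x axis) with its SE for 8 genes (y axis), in vehicle-treated (left) and CDDO-Me-treated mice (right), filled where called. The vehicle values run from -1.24 to 0.06 and the CDDO-Me values from -2.99 to -0.20, and Gss is called in neither panel.

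Per transcript length, the order of the genes in vehicle-treated wild-type livers was Prdx1 at 727 ± 20.5 TPM, Gclc at 246 ± 20.7, Gpx4 at 212 ± 14.9, Gclm at 70.4 ± 6.23, Gsr at 67.5 ± 3.01, Txnrd1 at 49.9 ± 4.03, Srxn1 at 47.5 ± 5.21, and Gss at 26.2 ± 3.89 TPM. Neighbours Gclm and Gsr, and Txnrd1 and Srxn1, differed by less than their spread. The order between genes, here and after CDDO-Me, also rests on a fixed exon length per gene. Which transcripts the livers used was not tested. For Gpx4, 34.7% of the 50-base words also occur in other genes, against 0 for Gclc, and reads mapping to several places were not counted. The order of Gclc and Gpx4 is therefore not settled by these values. After CDDO-Me Srxn1, at 219.5 ± 64.7 TPM, stood above Txnrd1 (109 ± 16.9) and Gclm (118 ± 14.5). Among the 6 groups, the wild-type CDDO-Me group had the highest mean level of each of the 10 genes, but for Gss (100.1 CPM against 85.9 in the Nrf2-knockout CDDO-Me group) and Slc7a11 the gap to the next group was within the larger SD, and Slc7a11 was at or under the floor in most livers. The means of the 4 mutant groups followed below wild-type vehicle for Gclc, Gclm, Gsr, Gpx4, Txnrd1, Srxn1, and Prdx1. For Gclm, Gpx4, and Prdx1 the step from wild-type vehicle to the next group was within the larger SD. Neighbours among the mutant groups also often differed by less than the larger SD, as in all 3 steps for Srxn1 and for Gclc.

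The balance of the catalytic to the modifier subunit of glutamate-cysteine ligase also differed between the groups. The ratio of Gclc to Gclm in TPM was 3.31 to 3.79 in vehicle-treated wild-type mice (mean 3.50 ± 0.20) and 4.13 to 6.47 after CDDO-Me (5.37 ± 1.09), without overlap. With vehicle and with CDDO-Me it was 2.59 ± 0.85 and 2.15 ± 0.84 in C151S livers. Nrf2-knockout livers stood at 2.02 ± 0.76 and 1.65 ± 0.37. This ratio was chosen after the levels had been seen and is given without a test.

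In the vehicle-treated mutant groups, Gclc was higher in the livers with high Arntl. In Nrf2-knockout mice it averaged 234 CPM in the 2 high-Arntl livers and 114.5 in the 3 low-Arntl ones, and in C151S mice 314 in 3 and 205 in 2. After CDDO-Me the means were 165 and 133 CPM in Nrf2-knockout and 239 and 217 in C151S mice, where the 2 high-Arntl livers of C151S held 131 and 348 CPM. Not all of the genes ran that way: in vehicle-treated C151S mice Prdx1 averaged 720.2 CPM with high and 935 CPM with low Arntl, and Srxn1 in vehicle-treated Nrf2-knockout mice averaged 28.5 and 29.1 CPM. The log2 ratio of CDDO-Me to vehicle for Gclc was -0.39 in the high-Arntl and 0.08 in the low-Arntl C151S livers, and -0.50 and 0.22 in Nrf2-knockout livers. These values from 2 or 3 mice a set are given as a description, and edgeR's test of CDDO-Me against vehicle in the high-Arntl libraries alone called 0 of the 8 genes in each mutant. That test called 0 of 14575 genes in C151S and 0 of 14367 in Nrf2-knockout mice, so these counts say nothing particular about the 8.

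**Figure D5:**
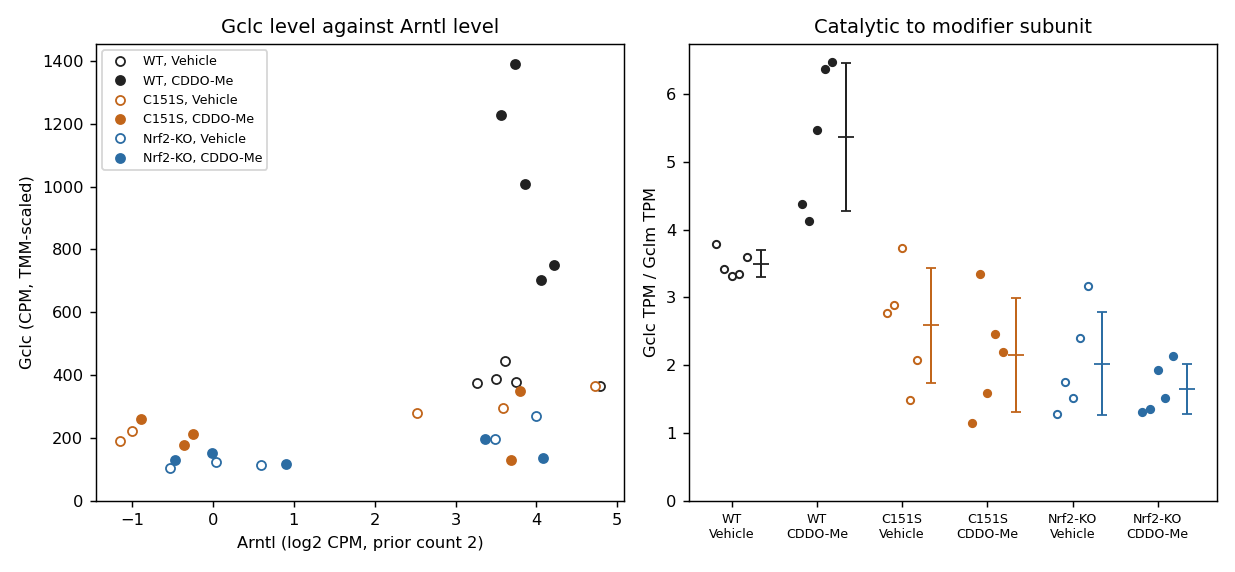
Left, Gclc (y axis, TMM-scaled CPM) against Arntl (x axis, log2 CPM) in each of 30 livers, where 11 mutant livers lie at -1.15 to 0.90 and 19 livers at 2.52 to 4.79. Right, the ratio of Gclc to Gclm in TPM (y axis) by group (x axis) with the mean and SD of 5 mice, highest in wild-type mice given CDDO-Me at 4.13 to 6.47.

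The other genes of these pathways were followed in lists chosen with earlier results of these data known. Of 21 tested genes of the glutathione cycle, 2 rose in CDDO-Me-treated wild-type mice, where 1.66% of all genes tested were called higher, a share that also stands beside the single genes that rose in 4 of the lists below. They were Esd (S-formylglutathione hydrolase, 220 to 386 CPM, log2 fold change of 0.80, SE 0.06, edgeR FDR 9.84e-06) and Ggt5, a gamma-glutamyltransferase (1.69 to 2.87 CPM, 0.76, SE 0.20, edgeR FDR 0.0481). None fell, and the median log2 fold change of the list was 0.10 against -0.01 over all genes. The response of Esd was also larger in wild-type than in C151S (0.71, SE 0.11) and in Nrf2-knockout mice (0.69, SE 0.11), at edgeR FDRs of 0.000971 and 0.0023. Gpx1, the main cytosolic glutathione peroxidase, was the most abundant gene of the list at a mean of 2148 TPM over all libraries and was called in none of the 12 comparisons. After CDDO-Me the glutathione-degrading enzymes Chac1 (1.37, SE 0.36, FDR 0.027) and Ggct (0.70, SE 0.15, FDR 0.0115) were higher in Nrf2-knockout than in wild-type mice in edgeR's test, and Glo1 (glyoxalase, -0.55, SE 0.09) and Esd (-1.04, SE 0.09) were lower. Esd was also lower in C151S (-0.86, SE 0.09). Before treatment, Gpx8 (0.88) was higher and Ggt6 (-0.71) lower in Nrf2-knockout than in wild-type mice. In C151S and in Nrf2-knockout mice edgeR's test called 0 genes of this list and of each list below after CDDO-Me, where 0.092% and 0.0% of all genes were called, so these counts say nothing particular about the lists.

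Of 20 further genes of the thioredoxin and peroxiredoxin systems, Txn1 (cytosolic thioredoxin) was the only one called in wild-type mice, rising from 175 to 260.0 CPM (log2 fold change of 0.57, SE 0.07, edgeR FDR 0.000518). Txn1 was lower in both mutants after CDDO-Me, at 145 CPM in C151S (-0.82, SE 0.08) and 127 CPM in Nrf2-knockout mice (-1.01, SE 0.12), and in vehicle-treated Nrf2-knockout mice at 119 CPM (-0.54, SE 0.12, edgeR FDR 0.0119). Txnip, which inhibits thioredoxin, was higher in Nrf2-knockout than in wild-type mice after CDDO-Me (111 against 49.4 CPM, 1.18, SE 0.25, edgeR FDR 0.00939), where Txnrd3 and Msra were lower (-0.59 and -0.70). Prdx6, with a mean level of 231 TPM over all libraries, was called in none of the 12 comparisons.

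Of 12 tested genes of cysteine and methionine supply, Csad (cysteine sulfinic acid decarboxylase, of taurine synthesis) rose in wild-type mice from 540.4 to 795 CPM (0.55, SE 0.11, edgeR FDR 0.0134) and was lower in Nrf2-knockout mice after vehicle (-0.94, SE 0.21) and in C151S (-1.27, SE 0.27) and Nrf2-knockout mice (-2.20, SE 0.27) after CDDO-Me. Cdo1 (cysteine dioxygenase) and the taurine transporter Slc6a6 were lower in Nrf2-knockout than wild-type mice after CDDO-Me (-0.76 and -0.56), and the neutral amino acid transporter Slc1a4 was lower in C151S (-0.89). None of the 6 genes of superoxide and hydrogen peroxide removal was called after CDDO-Me in any genotype. In wild-type mice 377 of 13697 genes were called in either direction, so 0 of 6 says nothing particular about this list. Between genotypes, catalase (Cat) was lower in both mutants after CDDO-Me (4077 CPM in wild-type, 2418 in C151S, and 2179 in Nrf2-knockout, edgeR FDR 0.0156 and 0.00408), and Sod3, the extracellular superoxide dismutase, was higher (17.7, 37.0, and 48.2 CPM, edgeR FDR 0.0154 and 0.0003). Sod3 was also higher in vehicle-treated Nrf2-knockout mice (1.00, SE 0.21).

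Of 14 genes of selenoprotein synthesis and selenium handling, Selenbp1 rose in wild-type mice from 303 to 466 CPM (0.61, SE 0.11, edgeR FDR 0.00793) and was lower in C151S (-0.72) and Nrf2-knockout mice (-1.14) after CDDO-Me. Selenos was lower in both mutants after vehicle (-0.59 and -0.67). The selenophosphate synthetase Sephs2 and the selenium carrier Selenop, the most abundant of the list, were called in none of the 12 comparisons. Slc7a11 is also a target of the amino acid response factor ATF4. Of 11 tested genes of that list, Fgf21 rose in wild-type mice, from 0.398 to 1.44 CPM with overlapping groups (1.85, SE 0.41, edgeR FDR 0.024). Atf4 itself was lower in Nrf2-knockout than in wild-type mice after vehicle (-0.61, SE 0.16) and CDDO-Me (-0.94, SE 0.11), and in C151S after vehicle (-0.53, SE 0.09, edgeR FDR 0.00637). Ddit3 was higher in C151S than in wild-type mice after CDDO-Me (0.85, SE 0.22). The median log2 fold change of the list after CDDO-Me was 0.20 in wild-type, 0.51 in C151S, and 0.19 in Nrf2-knockout mice, against -0.01 over all genes in each, with 0 called by edgeR in the mutants. Ddit3 was at 3.52 and 6.50 CPM in C151S mice (0.88, SE 0.25, edgeR FDR 0.333). Psat1 was at 0.7933 and 1.495 CPM in wild-type, 0.6943 and 1.926 in C151S, and 0.7099 and 4.754 in Nrf2-knockout mice, without overlap in each and not called (edgeR FDR 0.0823, 0.333, and 0.526). These 2 genes were named after their values were seen.

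The genes whose log2 CPM ran most closely with each of the 10 over the 30 libraries are given as a description, since the libraries share genotypes and treatment and only 6 group means separate them. For Gclm the nearest of 15010 genes was Txnrd1 (Pearson r of 0.96), for Gsr it was Srxn1 (0.96), and for Srxn1 the heme transporter Slc48a1 (0.97) followed by Cbr3 (carbonyl reductase, 0.96) and Gsr. Gpx4 ran closest with Fth1, the ferritin heavy chain (0.96), Txnrd1 with Eaf1 (0.97) and Slc35d1 (0.97), Prdx1 with Psmd5 (0.95), and Gclc with Tbce (0.94) and Creg1 (0.94). The highest value for Gss was 0.73, with Plpp2. Gpx2 ran closest with Cbr3 (0.95) at a prior count of 2 and with Srxn1 (0.91) at 0.5, and Slc7a11 with Pkm (0.72), at counts near the floor in both.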

How the data were processed

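RNA from 30 mouse livers was sequenced by the authors from stranded, poly(A)-selected libraries, checked with fastp with no bases removed, aligned to mm10 with STAR 2.7.7, and counted per gene by STAR on GENCODE release 23. The deposited values are raw gene counts with no normalisation. Reads at more than 1 place (10.5% to 16.9% of reads) and ambiguous reads (1.05% to 1.36%) were left out by the counting, as were the 4 summary lines of STAR here, and 65.9% to 80.6% of reads were counted on genes.

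Counts were tested in R 4.3.3 with edgeR 4.0.16 (filterByExpr, TMM, quasi-likelihood F-test, Benjamini-Hochberg adjustment over all genes tested, FDR under 0.05). The 9 comparisons of 2 groups used the 10 libraries concerned and a log2 fold change of at least 0.5. The 3 differences between responses used 1 fit of all 30 libraries. The study's isolation-date covariate was not used here, since the dates are not given in the sources used here. p-values measure the spread between mice. A SE is the log2 fold change divided by the root of F. TPM used exon lengths of GENCODE release 21. CPM used TMM-scaled library sizes, and log2 CPM a prior count of 2. Gene counts of 3 or fewer were taken as the floor, which covers counting error only.

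The 10 genes and the pathway and marker lists were chosen with earlier results of these data known. Named were the 10 genes, Nfe2l2, Keap1, Arntl, list genes called in any comparison (at most 4 per list and comparison), up to 2 abundant uncalled genes per list, markers, and the 3 genes nearest each of the 10 by correlation. No pair of libraries was identical. Alternatives were DESeq2 1.42.0, other normalisation, filters, fits, a replicate block, no size threshold, the Arntl split, and leaving out each library. The tests were checked on simulated data.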

Additional observations from a re-analysis of the deposited data

Results flagged for a closer look

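In groups of 5 mice, 9 of the 72 gene and group combinations examined held a liver separated from the other 4 by more than the 95% critical gap (0.71 of the group's range). Chance flags about 1 in 20 for continuous values. That rate does not hold for Gpx2 and Slc7a11, whose flagged groups held 0 to 3 counts per liver, so 9 of 72 cannot be set against it. In vehicle-treated wild-type mice these were Gclc in replicate 1 at 444.6 CPM, Gpx4 in replicate 2 at 186.8 CPM, and Slc7a11 in replicate 3 at 0.02623 CPM, which is 1 count. In vehicle-treated C151S mice, replicate 5 was apart for Gpx4 at 171.3 CPM and for Srxn1 at 43.35 CPM. In CDDO-Me-treated C151S mice, Prdx1 was lowest in replicate 2 at 819.6 CPM, and Gpx2 was at 0.0 CPM in replicate 3 while the other 4 held 1 count each. Gpx2 was also apart in vehicle-treated Nrf2-knockout replicate 4 at 0.09898 CPM (3 counts) and CDDO-Me-treated Nrf2-knockout replicate 2 at 0.04836 CPM (2 counts), all at the floor.

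Differences between genotypes in the response to CDDO-Me passed edgeR's quasi-likelihood test of the difference itself for 5 genes between wild-type and C151S mice. In log2 units they were 2.29 for Srxn1, 1.64 for Gclc, 0.95 for Txnrd1, 0.89 for Gsr, and 0.75 for Gclm. Between wild-type and Nrf2-knockout mice 3 passed, at 2.04 for Srxn1, 0.85 for Txnrd1, and 0.58 for Gclm.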

How the results depend on the processing

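Of 96 results for single genes (the 8 genes without Gpx2 and Slc7a11), 33 were called. Of these, 24 were called in every alternative that gave a value, 9 were lost in at least 1, and 0 reversed. Of the 63 not called, 9 were called in at least 1 alternative. In C151S against wild-type after vehicle, 1 of the 8 genes was called, against 2 with DESeq2, 3 with no size threshold, 2 in the high-Arntl libraries alone (chosen after seeing the data), and 0 to 2 when single libraries were left out: 0 without wild-type replicate 2 and 2 without C151S replicate 3. The high-Arntl libraries called 1 of the 8 genes in each response difference from wild-type, in place of 5 and 3, and the fit of all 30 libraries with the Arntl set as a covariate called 5 and 4. Leaving out single libraries gave 5 to 8 of the 8 genes called in wild-type mice after CDDO-Me, and 4 to 5 and 2 to 4 in the response differences from C151S and Nrf2-knockout. In the same order, the totals over all genes then ran from 265 to 493, from 50 to 97, and from 28 to 53.

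Replicate numbers did not pair all of the mice: in each of the 9 comparisons the lowest correlation of same-numbered libraries was negative, and 0 to 2 of the numbers correlated best with their own. The mean correlation of same-numbered libraries ran from -0.21 between the vehicle-treated mutants (0.05 for other pairs) to 0.25 between C151S and wild-type after CDDO-Me (-0.06 for other pairs). Whether some of the numbers share a batch was not tested. With a replicate block 5 of the 8 genes were called after CDDO-Me in wild-type mice and 1, 5, 7, and 7 in the comparisons with wild-type, the counts without the block. In the response differences from wild-type, 4 and 2 were called, at FDRs of 0.0502 for Gclc and 0.106 for Gclm. Over all genes the block moved 13 calls to 2 in C151S mice, 50 to 9 and 23 to 8 between the mutants, and 40 to 23 in the response difference from Nrf2-knockout.

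Totals over all genes moved more. In wild-type mice after CDDO-Me 377 were called, 147 in 1 fit of all libraries and 580 with no size threshold. In C151S mice the 13 ranged from 0 (high-Arntl alone) to 100 (DESeq2), and in Nrf2-knockout mice the 0 became 52 (DESeq2) or 11 (1 fit). C151S against wild-type went from 675 to 2030 after vehicle and from 692 to 294 after CDDO-Me in the high-Arntl libraries, to 382 (1 fit) and 1160 (no size threshold) after vehicle and to 1137 (DESeq2) after CDDO-Me. Nrf2-knockout against wild-type after vehicle went from 1462 to 2307 with no size threshold. Leaving out single libraries moved 3 of the totals with wild-type by more than 1.5 times. C151S against wild-type after vehicle ran from 390 (without C151S replicate 2) to 1168 (without C151S replicate 4), with 418 and 404 without wild-type replicates 4 and 5. After CDDO-Me it ran from 379 (without wild-type replicate 1) to 1303 (without C151S replicate 1), with 381 to 441 without wild-type replicates 2, 3, or 4 or C151S replicates 4 or 5. Nrf2-knockout against wild-type after vehicle was 949 without knockout replicate 3. Between the mutants the 50 after vehicle ranged from 4 to 180 (29 to 54 without single libraries) and the 23 after CDDO-Me from 0 to 126 (11 to 38), and the 13 of C151S mice from 0 to 22 without single libraries. The response differences had 72, 40, and 2, against 113 and 85 with DESeq2 in the first 2 and 40, 22, and 0 in the high-Arntl libraries, and 95, 58, and 3 with the Arntl covariate. The causes were not tested. The covariate was planned for groups that both hold both Arntl sets and was not run in the comparisons of 2 groups with wild-type, whose livers were all high; in the response differences its effect was estimated from the mutant livers. Depth limits Gpx2 and Slc7a11, whose counts lay at the floor in most livers.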
